A study of Mus musculus with 6 samples.

Results

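The 8 codons of Asn (AAU, AAC), Asp (GAU, GAC), His (CAU, CAC) and Tyr (UAU, UAC) were followed through the brain ribosome profiling of WT and tRNA-Phe-1-1-/- mice. They were chosen by amino acid, with no measured value in the rule, and are 8 of the 64 codons in the deposited counts. In ribosome profiling, pieces of mRNA shielded from nuclease by ribosomes are sequenced, and the codons within a read report where ribosomes were. The samples were homogenates of brain tissue, with no region named in the study's methods. They came from 3 control mice (WT, +/+) and 3 mice with no intact copy of the tRNA-Phe-1-1 gene. The latter (tRNA-Phe-1-1-/-) are labelled Phe11 -/- and KO, and are called KO below. By the study's methods these were male C57BL/6N mice of 10 weeks. All mice carried the other tRNA-Phe genes. The deletion was introduced with Cas9 in embryos, inherited, and so present in every cell, so that effects within the brain cannot be told apart from effects of its loss in other organs.

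The tRNAs for Asn, Asp, His and Tyr share an anticodon that begins with G, and in mammals this G is exchanged for queuosine, a modified base made from queuine, which animals take up from food and gut bacteria. One such tRNA reads both codons of its amino acid, the codon ending in C and the codon ending in U, and the modification is known to alter how evenly the pair is read. The tRNA deleted here reads the Phe codons UUU and UUC. Its anticodon, GAA, also begins with G but carries no queuosine, which makes Phe, with Cys, Gly and the AGU and AGC codons of Ser, the natural comparison for these 4 amino acids.

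The deleted gene does not encode any of the 4 tRNAs. The guide RNA used against it is shown because it covers the anticodon, which is given in capitals.

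tRNA-Phe-1-1 guide, 5′ to 3′: gcgttagactGAAgatctaa

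In GRCm39 the guide matched 1 site on chromosome 5, chr5:125483149-125483168 on the minus strand, followed by the PAM agg. Other chromosomes were not searched, and the paper reports that the genes of the tRNA-Phe-1 group are identical in mature sequence. The anticodon bases were guide bases 11 to 13. No gene of the GENCODE M39 annotation overlapped the site.

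Each genotype had 1 table, the sum over its 3 mice, with 1366689 WT and 2045356 KO reads. There was therefore no error between mice, no test and no p-value, and the differences below are those of 2 pooled libraries. Each count is a number of read 5′ ends at a given distance, here called the position, from the first base of a codon. Negative positions lie upstream of the codon, which then lies in the read where the read is long enough. Read lengths are not given in the sources used here, so at the outermost positions the codon may lie past the read. A share is the count of a codon divided by the count of all 64 codons at the same position. All intervals are 95% intervals of counting error only. Those of shares at a single position are Wilson intervals, and those of log2 ratios and of differences are normal approximations. Position totals were 363910 to 539833 in WT and 536238 to 812424 in KO brains. The reads had an uneven base content, since G made up 1.19% of their first 17 bases in WT and 1.47% in KO brains, and C made up 44.2% and 42.7%. The base directly before the read was G in 86.3% and 86.5% of reads. The tables hold codons and no genes, so neither the brain origin nor the loss of tRNA-Phe-1-1 could be checked in them.

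Together the 8 codons made up 17.3% of WT and 17.5% of KO counts, as a mean over positions -30 to 2. The log2 ratio of KO over WT was 0.017 (counting interval 0.0093 to 0.024), and it was -0.050 when each position was scaled by the median codon in place of the sum. Mean-share intervals assume that each read was counted at up to 11 positions, the widest case. The same 8 codons make up 13.7% of the codons in the coding sequences of 21482 mouse genes, each gene taken once and not weighted by its expression. By amino acid, Asn had 5.71% in WT and 5.88% in KO brains, Asp had 2.54% and 2.63%, His had 5.07% and 4.93%, and Tyr had 3.99% and 4.07%. The log2 ratios were 0.043 (0.030 to 0.056) for Asn, 0.048 (0.029 to 0.067) for Asp, -0.039 (-0.053 to -0.025) for His and 0.028 (0.013 to 0.044) for Tyr. The intervals of Asn, Asp and Tyr overlapped, and His lay on the other side of 0. After scaling by the median codon, AAC, GAC, CAU and UAC were below 0 as CAC was.

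The profile along the read separated Asp from the other amino acids. Positions -14 to 0 place the whole codon within the first 17 bases of the read, and positions -30 to -17 place it wholly behind them. In the first 17 bases of WT reads, the codons of Asn took 7.54% of the counts, those of His 6.88% and those of Tyr 5.42%, whereas Asp, whose codons begin with G, took 0.258%. Behind these bases Asp took 3.75%, close to Asn with 4.31% and His with 3.69% and above Tyr with 2.86%. Against their frequency in coding sequences, WT counts in the first 17 bases were 2.80 times for AAC, 3.08 times for CAC and 2.60 times for UAC, and 0.0474 and 0.0603 times for GAU and GAC. Behind them the 8 codons lay between 0.736 times (GAU) and 1.47 times (CAC).

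**Figure D1:**
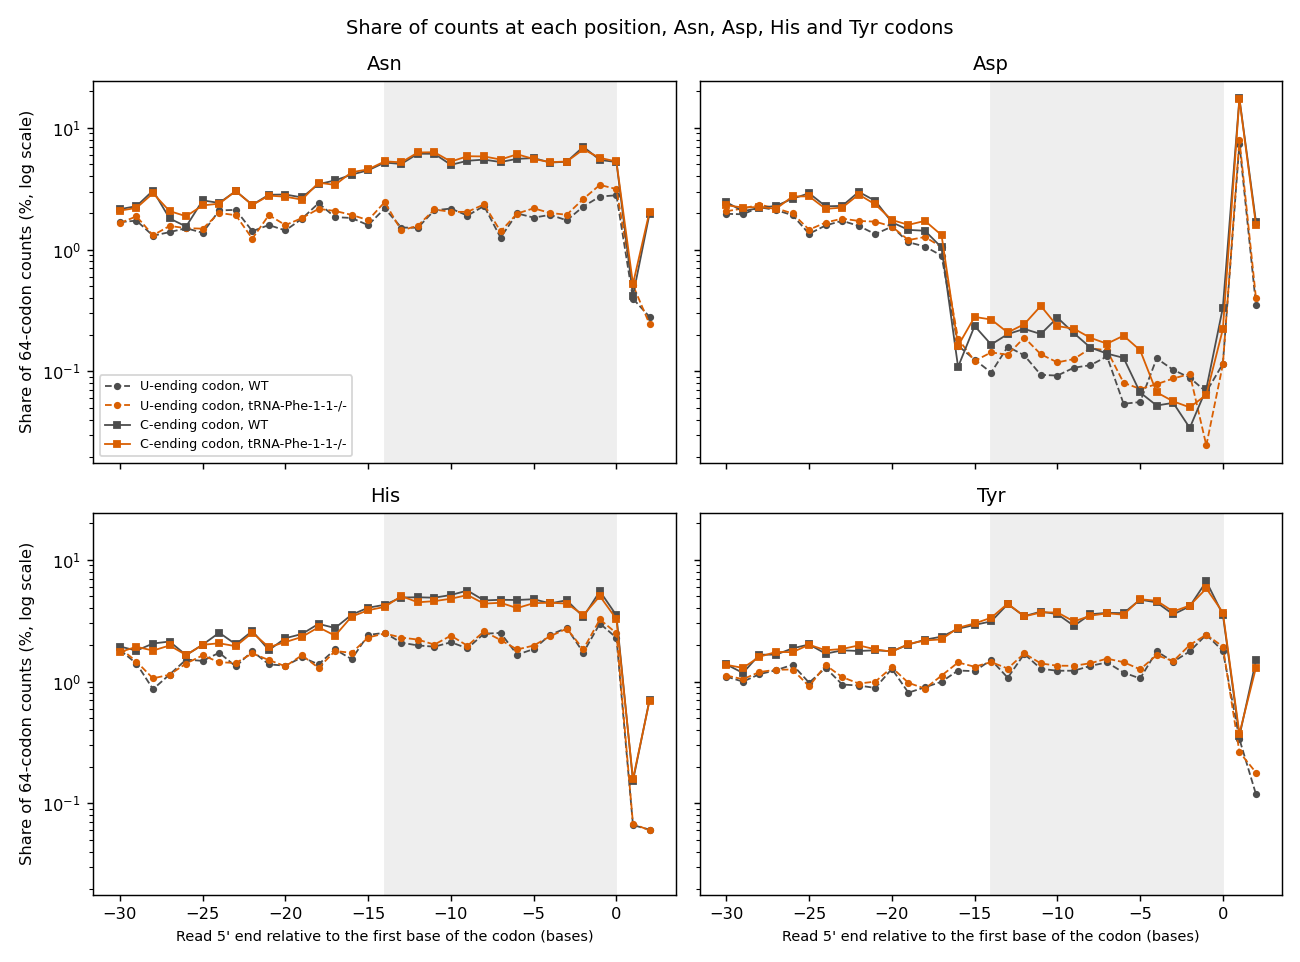
Share of the 64-codon counts (%, log axis) against the distance of the read 5′ end from the codon (bases), for the U-ending (circles, dashed) and C-ending (squares, solid) codon of each amino acid in WT (grey) and tRNA-Phe-1-1-/- (KO, orange) brains. The shaded band is -14 to 0, where Asp falls below 0.5% in both genotypes, and Asp alone peaks at position 1, at 17.5% for its C-ending and 7.43% for its U-ending codon in WT.

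Asp stood highest at position 1, where the G that begins its codons directly precedes the read. There GAC took 17.5% of the WT counts (17.3 to 17.6; 94205 counts) and 17.2% of the KO counts (17.1 to 17.3; 139820 counts), and GAU took 7.43% (7.36 to 7.50) and 7.98% (7.92 to 8.03). Of all counts of GAC over the 33 positions, 38.0% in WT and 37.3% in KO brains were at position 1, and of those of GAU 26.5% and 26.4%. Both codons together took 24.9% in WT and 25.2% in KO brains, with a log2 ratio of 0.018, or -0.016 after scaling by the median codon. In the coding sequences, 79560 stretches of at least 17 bases without G followed a G. Among those that began on the second base of a codon, that codon was GAC in 15.7% and GAU in 11.3%. The stretch was defined after the pattern of these reads, so its likeness to them is a description only.

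The other codons were low where Asp was high. At position 1, Asn, His and Tyr together took 1.73% in WT and 1.90% in KO brains. His was the lowest, with 0.0663% (358 counts) for CAU and 0.153% (826 counts) for CAC in WT. At position 2 the middle base of the codon, an A in all 8, directly precedes the read. All 8 codons together were at 6.68% and 6.52% there, the lowest of the 33 positions in both genotypes. Their highest sum was at position 1 (26.6% and 27.1%), and the next highest was at position -1 (25.9% and 25.7%), where the codon starts at the second base of the read.

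Each codon was set beside the sense codon of another amino acid, outside the 8, whose profile along the read was most like its own. The log2 WT share of AAC over the 33 positions was most like that of AUC (Ile), with a Pearson r of 0.97, that of UAC was most like UUC (Phe; 0.96), and that of CAC was most like CUC (Leu; 0.97). AAU and UAU were both most like UUU (Phe; 0.92 and 0.91), CAU was most like CCU (Pro; 0.96), GAU was most like GAA (Glu; 0.97) and GAC was most like GUC (Val; 0.98). These correlations run over positions of the same reads, which share their base composition, and carry no p-value.

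The comparison of the genotypes asked whether codons that the deleted tRNA does not read changed in their share of the counts. The paper reports altered tRNA-Tyr and tRNA-Asp in KO brains by northern blotting. The supply of these tRNAs can therefore not be taken as unchanged, and its part in the codon shares was not tested. Over positions -30 to 2 the U-ending codons and the C-ending codons of the 4 amino acids did not behave alike. The 4 U-ending codons together were at 5.69% in WT and 5.99% in KO brains, a log2 ratio of 0.073 (0.060 to 0.086). The 4 C-ending codons together were at 11.6% and 11.5%, a log2 ratio of -0.012 (-0.021 to -0.0025).

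GAU (Asp) had the highest log2 ratio of the 8. Its mean share was 0.970% in WT and 1.05% in KO brains, a log2 ratio of 0.11 (0.080 to 0.14), and it was place 4 of the 61 sense codons ordered from the highest ratio. UAU (Tyr) had 1.21% and 1.28%, a ratio of 0.082 (0.054 to 0.11), at place 10. AAU (Asn) had 1.76% and 1.86%, a ratio of 0.079 (0.056 to 0.10), at place 11. These 3 codons were higher in KO brains under all 13 choices of window, scaling and summary. CAU (His) had 1.75% and 1.80%, a ratio of 0.040 (0.016 to 0.064), and was below 0 under scaling by the median codon.

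Of the C-ending codons, CAC (His) was set apart by its direction. It took 3.32% in WT and 3.13% in KO brains, a log2 ratio of -0.083 (-0.10 to -0.065), at place 56 of 61. The ratio was below 0 under all 13 choices, from -0.16 to -0.075. The other C-ending codons lay near 0, with log2 ratios of 0.027 (0.011 to 0.042) for AAC, 0.0082 (-0.016 to 0.033) for GAC and 0.0045 (-0.014 to 0.023) for UAC, and each had both signs among the 13 choices. In levels, AAC took 3.95% in WT and 4.03% in KO brains, GAC took 1.58% in both, and UAC took 2.78% and 2.79%.

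A log2 ratio of 0.1 or more was reached by 1 of the 8 codons, GAU, against 8.2% of all 61 sense codons, and a ratio of -0.1 or less by 0 of the 8, against 3.28%. The median log2 ratio of the 8 codons was 0.033, beside 0.027 over the 61 sense codons. As a group the 8 codons thus lay where sense codons lay in general, from place 4 to place 56.

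**Figure D2:**
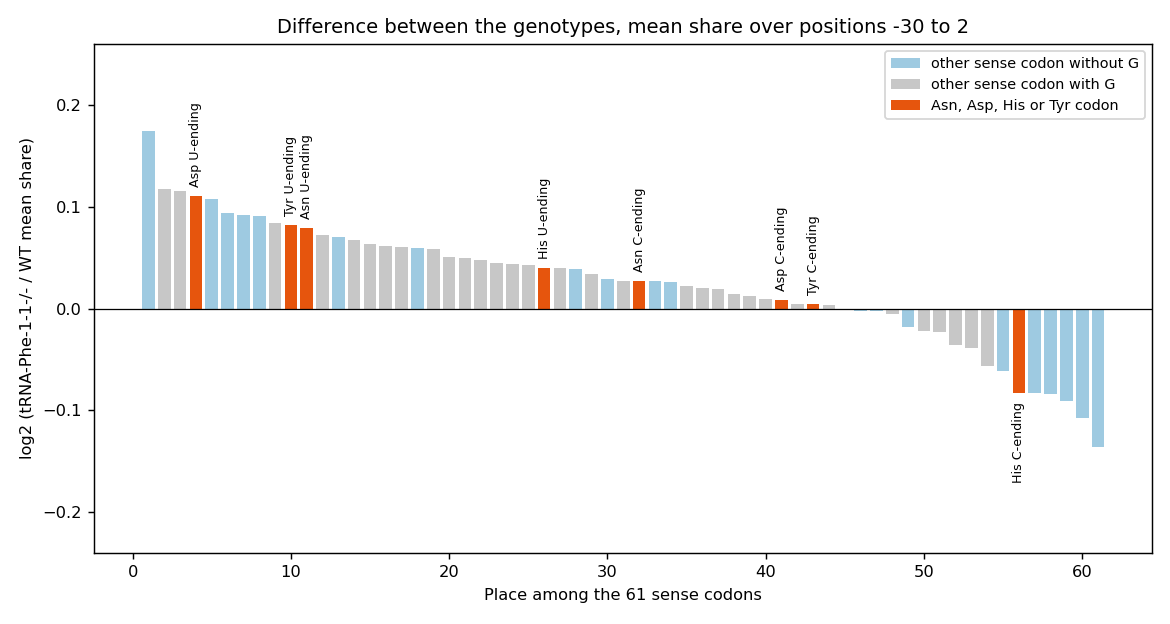
Log2 ratio of the mean share over positions -30 to 2, KO over WT, for each of the 61 sense codons in order, with no error bars. The Asn, Asp, His and Tyr codons (dark orange) are spread over the order, from Asp U-ending (0.11) to His C-ending (-0.083), among codons without G (blue) and with G (grey).

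Among codons without G, the order followed the number of C in the codon. The members with 0 C, AAU and UAU, were at 0.079 and 0.082, and the 5 other sense codons with 0 C and no G ranged from 0.091 to 0.17. The members with 1 C, AAC, CAU and UAC, ranged from 0.0045 to 0.040, and the 9 other codons ranged from -0.018 to 0.070 with a median of 0.027. CAC, the member with 2 C, was at -0.083, and the 5 other codons with 2 C ranged from -0.11 to -0.061 with a median of -0.084. AAU and UAU were thus below the others of their class, and the other 4 members were within the range of theirs. The share of C in the first 17 bases, 44.2% in WT and 42.7% in KO brains, differed in the same direction. The codon counts make up these base shares, so they are not separate measurements, and the part of base content in the ratios was not tested.

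Position by position, the 8 codons gave 264 comparisons. The intervals of the genotypes were apart with the higher share in KO brains in 116 (43.9%, against 40.9% of the 2013 comparisons of the sense codons), and with the lower share in 68 (25.8%, against 24.9%). CAC was lower in KO brains at 26 of 33 positions, with intervals apart at 23, and its intervals were apart in the other direction at 4. UAU and GAU were each higher at 27 positions, with intervals apart at 18 and 20, and AAU was higher at 24, with intervals apart at 17. Within the first 17 bases CAC was lower at 12 of 15 positions and behind them at 11 of 14. GAU was higher at 14 of 14 positions behind the first 17 bases and at 10 of 15 within them.

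The programme that made the counts places the A, P and E sites of the ribosome, where a tRNA enters, holds the growing chain and leaves, at positions -17, -14 and -11. At the A site, 3 of the U-ending codons were higher in KO brains, with intervals apart. Over all positions this held for 40.9% of the comparisons of the sense codons, and the share at the A site alone was not counted. AAU was at 1.85% (1.81 to 1.89) in WT and 2.08% (2.05 to 2.11) in KO brains, UAU at 0.998% (0.971 to 1.03) and 1.12% (1.10 to 1.14), and GAU at 0.892% (0.867 to 0.918) and 1.05% (1.03 to 1.07). CAU, at 1.84% and 1.79%, had overlapping intervals. The C-ending codons outside Asp were lower, with 3.70% and 3.40% for AAC, 2.75% and 2.38% for CAC, and 2.34% and 2.22% for UAC, while GAC was at 1.04% and 1.32%.

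The next sites did not show the same order. At the P site UAU was lower in KO brains (1.51% in WT and 1.45%) and UAC was higher (3.12% and 3.34%), the opposite of the A site. AAC was higher at both the P and the E site, by log2 0.033 and 0.043. CAC was lower at the A, P and E sites, with log2 ratios of -0.21, -0.057 and -0.094. A site convention assumes reads whose length and cut follow the ribosome, and how far these reads do was not tested.

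**Figure D3:**
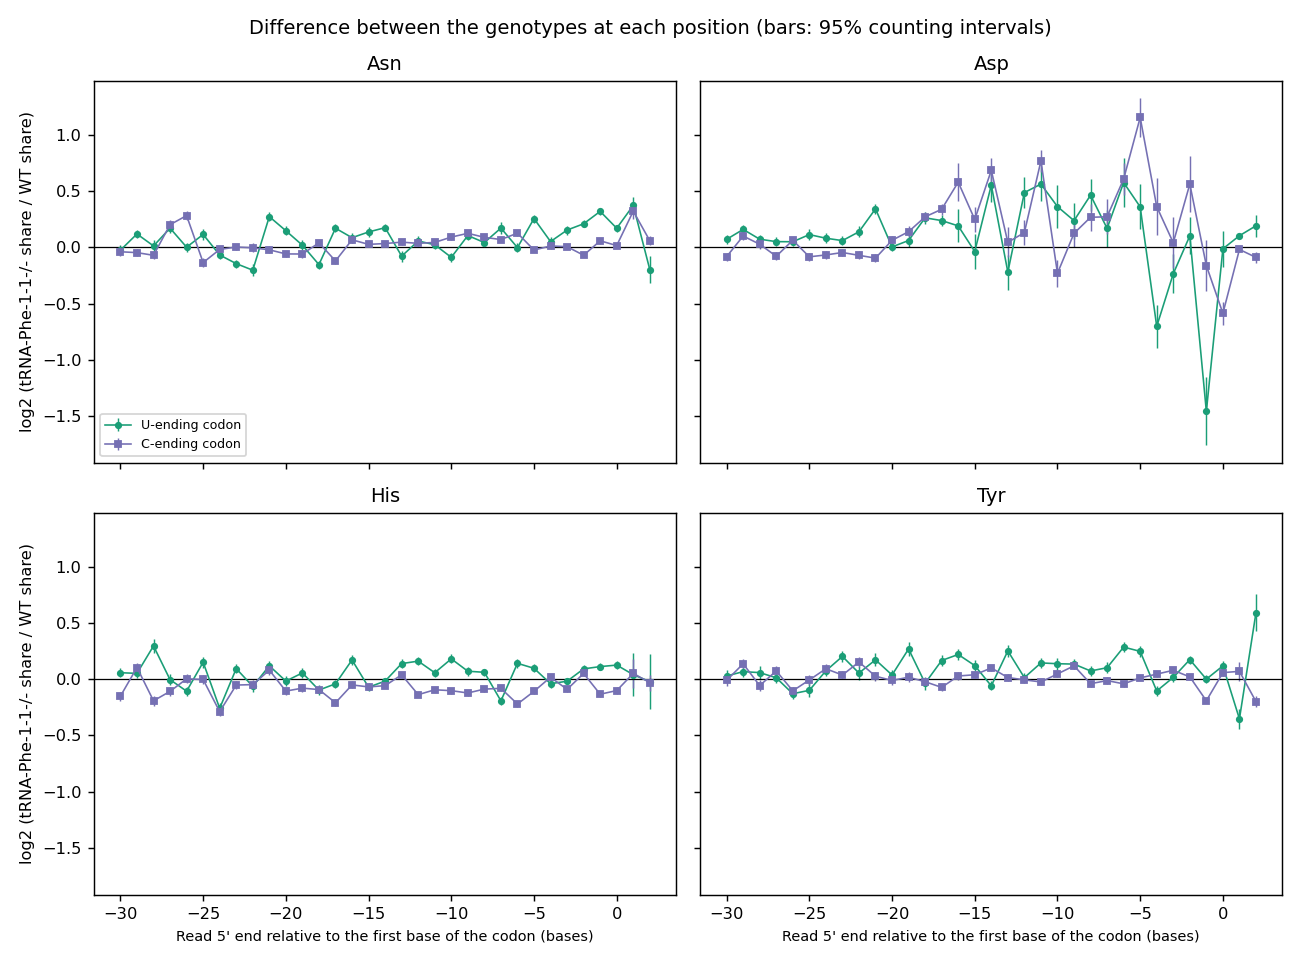
Log2 ratio of KO to WT share (vertical axis) at each distance of the read 5′ end from the codon (bases), for the U-ending (green circles) and C-ending (purple squares) codon of each amino acid, with 95% counting intervals. The Asp codons range from -1.46 to 1.15, and the His C-ending codon is below 0 at 26 of 33 positions.

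The widest differences were those of the Asp codons where their counts were low. GAC had 361 WT and 1208 KO counts at position -5, shares of 0.0672% and 0.149%, a log2 ratio of 1.15 (0.98 to 1.32). GAU had 252 and 135 counts at position -1, shares of 0.0679% and 0.0247%, a log2 ratio of -1.46 (-1.76 to -1.16). The Asp codons thus differed in both directions within a few bases.

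Over positions -14 to 0 together, GAC had 0.155% in WT and 0.179% in KO brains, a log2 ratio of 0.21 (0.14 to 0.29), and GAU had 0.103% and 0.114%, a ratio of 0.15 (0.051 to 0.24). Here 3 of the 8 codons, GAU, GAC and AAU, had a ratio of 0.1 or more, against 59% of the 61 sense codons. Over positions -30 to -17 GAU alone did (0.11), against 8.2%, and 0 of the 8 codons had a ratio of -0.1 or less, against 1.64%. The share of G in the first 17 bases was 1.19% in WT and 1.47% in KO brains, and its part in these ratios was not tested.

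Within -14 to 0, the Asp difference varied with the codon base on which reads began. Where reads began on the second base of a codon, GAC was at 0.125% in WT and 0.200% in KO brains, a log2 ratio of 0.67 (0.54 to 0.80), and GAU at 0.0898% and 0.121%, a ratio of 0.43 (0.27 to 0.58). GAC was then place 1 of the 16 sense codons that begin with G and place 4 of the 35 that contain G, whose median was 0.49, and GAU was place 10 and place 24. Where reads began on the first base, GAC was at -0.0052, place 16 of the 16, and GAU at 0.22, place 11. Where they began on the last base, GAC was at 0.0024, place 9, and GAU at -0.19, place 13. Of the members without G, CAC was below 0 in each of these, at -0.13 for the first base of the codon, -0.065 for the second and -0.054 for the last.

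The codons of AAU and AAC, read by 1 tRNA, can be compared without reference to how often Asn is used, and likewise for the other amino acids. The C-ending share is the count of the C-ending codon divided by the count of the pair. Over positions -30 to 2 it was 69.2% in WT and 68.3% in KO brains for Asn, a difference of -0.86 percentage points (counting interval -1.28 to -0.44). It was 62.1% and 60.5% for Asp, a difference of -1.65 (-2.30 to -1.01), 65.3% and 63.4% for His, a difference of -1.94 (-2.40 to -1.47), and 69.4% and 68.3% for Tyr, a difference of -1.15 (-1.65 to -0.64). A lower C-ending share of at least 0.5 points was thus seen in 4 of 4 amino acids, against 81.2% of all 16 pairs of U- and C-ending codons.

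**Figure D4:**
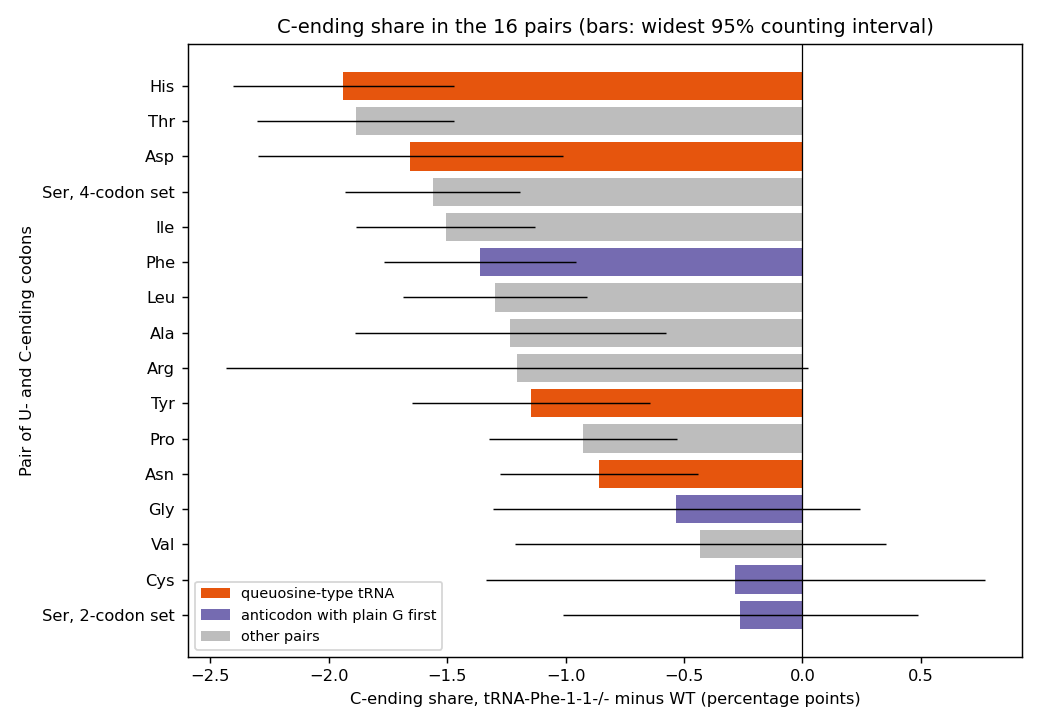
Difference in C-ending share (KO minus WT, percentage points) for the 16 pairs of U- and C-ending codons, with the widest 95% counting interval as error bar. Over positions -30 to 2, all 16 pairs lie below 0, and the queuosine-type pairs (orange) are at place 1 (His), 3 (Asp), 10 (Tyr) and 12 (Asn) from the largest difference.

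Over positions -30 to 2 the C-ending share was lower in KO brains in all 16 pairs, the 12 pairs outside the queuosine-type tRNAs included. His had the largest difference of the 16 there, followed by Thr at -1.89 points, whose interval (-2.30 to -1.47) overlapped that of His. The pairs with a G at the start of the anticodon and no queuosine were at -1.36 (Phe, -1.77 to -0.96), -0.53 (Gly, -1.31 to 0.24), -0.28 (Cys, -1.33 to 0.77) and -0.26 (Ser AGU and AGC, -1.01 to 0.49). The median difference was -1.40 points over the 4 queuosine-type pairs, -0.41 over these 4 pairs and -1.22 over all 16. The codons of Gly, Cys and this Ser pair contain G, as those of Asp do, and those of Phe do not. Phe is also the pair that the deleted tRNA reads, and it enters the medians of the comparison pairs. The direction changed with the place in the read. Over -30 to -17 the share was lower in KO brains in 15 of 16 pairs, the exception being Ser AGU and AGC at 0.75 points. Over -14 to 0 it was lower in 11 of 16. The other 5 pairs all had codons with G, and were Asp (1.13 points, -0.91 to 3.17), Val (1.45, -1.49 to 4.39), Gly (4.795, 2.25 to 7.34), Ser AGU and AGC (7.78, 4.53 to 11.04) and Cys (9.59, 5.74 to 13.4), while Phe was at -1.68 (-2.01 to -1.35). The median over -14 to 0 was thus -1.17 points for the queuosine-type pairs and 6.29 for the comparison pairs.

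Along the read, the C-ending share of Asn, His and Tyr was higher within the first 17 bases than behind them in both genotypes. In WT it was 73.3% and 60.6% for Asn, 67.9% and 59.9% for His and 72.6% and 62.7% for Tyr, while Asp had 60.2% and 57.1%. The corresponding shares in coding sequences were 55.1%, 57.1%, 55.9% and 54.1% for Asn, His, Tyr and Asp. In stretches of coding sequence without G the shares were 60.1% for Asn, 57.5% for His and 59.2% for Tyr within the first 17 bases, so that the reads were richer in C-ending codons than either. Coding sequences were not weighted by the level of their mRNA, and the part of expression in this gap was not tested. Phe, at 76.3% in WT reads against 61.7% in the stretches, had a gap of the same kind.

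**Figure D5:**
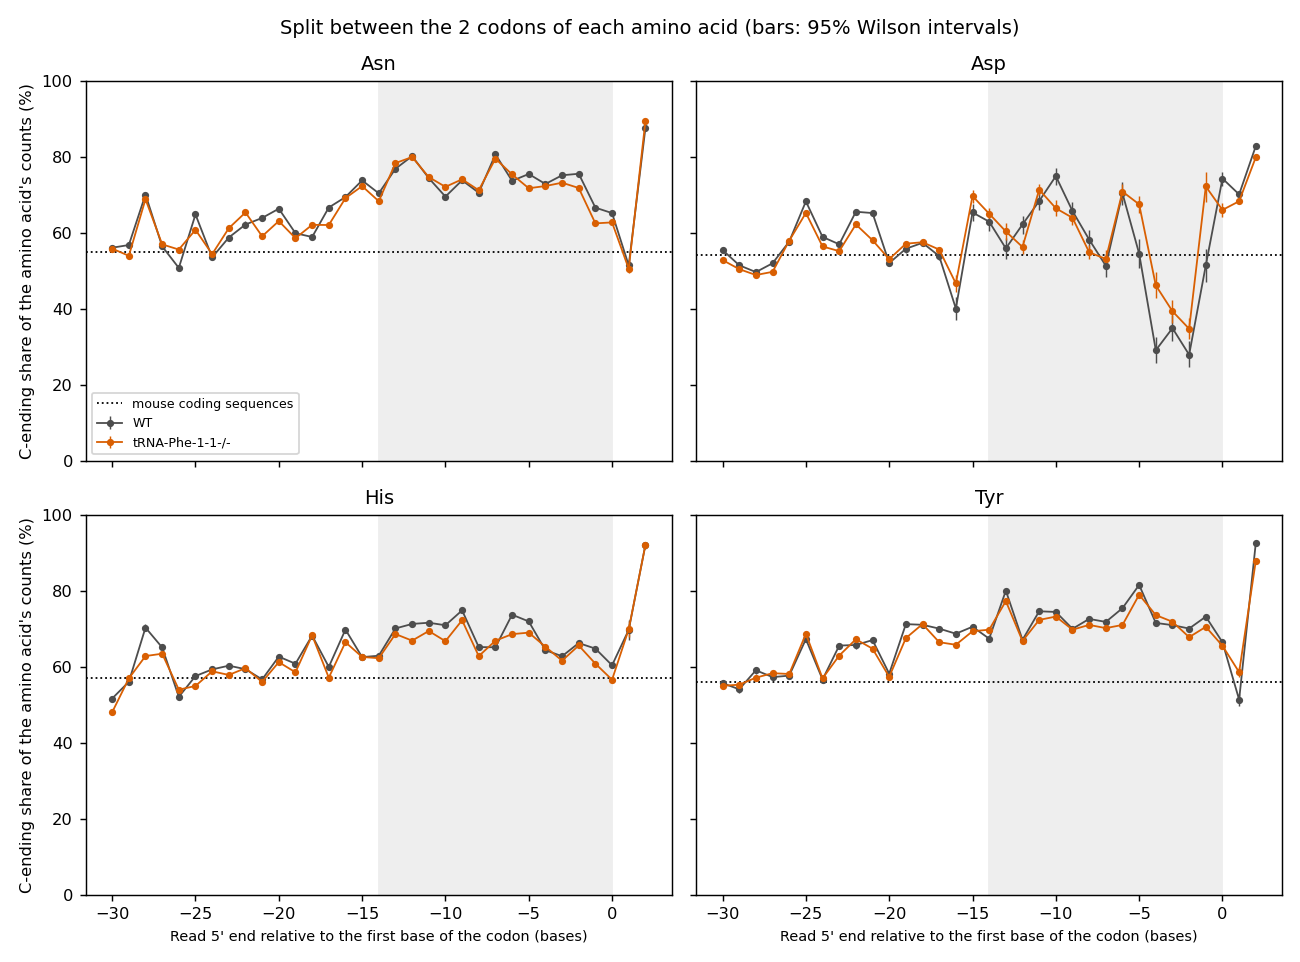
C-ending share of each amino acid's counts (%) at each distance of the read 5′ end from the codon (bases), in WT (grey) and tRNA-Phe-1-1-/- (KO, orange) brains, with 95% Wilson intervals, and the share in mouse coding sequences (dotted line). Asn, His and Tyr lie above the dotted line at all positions from -14 to -1, and all 4 amino acids are highest at position 2, between 79.9% and 92.6%.

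The split varied more along the read than between the genotypes. At position 2, where the last base of the codon is the first base of the read, the WT C-ending share was 87.5% for Asn, 82.9% for Asp, 92.1% for His and 92.6% for Tyr. The first base of all reads was C in 41.4% and U in 25.1% in WT. Tyr was lower in KO brains there, at 87.9% (87.2 to 88.6) against 92.6% (91.9 to 93.3), since UAU had 445 WT and 985 KO counts, a log2 ratio of 0.59 (0.43 to 0.75). At position 1 the same pair differed in the other direction, at 51.4% in WT and 58.6% in KO brains. For His the intervals of the genotypes overlapped at both positions.

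By position, the C-ending share of His was lower in KO brains at 25 of 33 positions, with intervals apart at 20, and apart in the other direction at 2. For Tyr it was lower at 22 positions, with 17 apart and 3 apart in the other direction, and for Asn at 20, with 13 and 8. Asp was lower at 16 positions, with 12 and 7. Positions were not counted in this way for the other U- and C-ending pairs, so these counts have no background to be judged against. Over the 33 positions together, the C-ending share was lower in KO brains in all 16 pairs. The Asp split turned with the place in the read. Behind the first 17 bases the split was 57.1% in WT and 55.4% in KO brains, a difference of -1.65 points (-2.23 to -1.08), and at this place in the read all 4 amino acids were lower by at least 0.5 points, against 75% of the 16 pairs. At position 1 Asp had 70.1% and 68.3%. Within the first 17 bases it had 60.2% and 61.3%, a difference of 1.13 points (-0.91 to 3.17) on 17316 WT and 30326 KO counts. Its widest single differences were a higher share in KO brains at position -1, with 51.4% and 72.2%, and a lower one at position -10, with 74.9% and 66.5%. The differences of His and Tyr within the first 17 bases were -2.25 (-2.65 to -1.86) and -1.26 points (-1.67 to -0.84), and that of Asn was -1.08 (-1.43 to -0.74), so that 3 of the 4 pairs were lower by 0.5 points or more, against 68.8% of the 16 pairs.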

How the data were processed

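Ribosome profiling libraries of 3 WT and 3 tRNA-Phe-1-1-/- mouse brains were used. The authors trimmed adaptors (Trim Galore, cutadapt), removed reads on non-coding transcripts with Bowtie2 2.4.5, aligned the rest to GRCm39 with STAR, and used fivepseq to tally where read 5′ ends fell relative to codons. The deposited values are raw counts in whole numbers, 33 positions by 64 codons, summed over the mice of a genotype. The nuclease is not given in the sources used here. The uneven base content of the reads can shift every codon share. Counts were divided by the 64-codon sum at each position, and shares were averaged over positions. Reads are counted at several positions and PCR copies are unknown, so intervals cover counting error only. Tables were simulated from the WT shares with set ratios, at the depth of each genotype. The intervals held the set ratio for 95.1% of single positions over 61 codons. The simulation held only the counting error that the intervals assume, so it checks the formula and not the data. Intervals of mean shares and of C-ending shares were not simulated. Coding sequences and G-free stretches came from GENCODE M39 (GRCm39). All 8 codons were named, and the codons and lists were chosen with earlier results of these data known. Calculations were made in Python 3.11.15 with pandas 2.3.3, scipy 1.17.1 and numpy 2.4.6, and plots with matplotlib 3.10.9.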

Additional observations from a re-analysis of the deposited data

How the results depend on the processing

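Windows, scalings, count minimums, intervals and summaries were changed one at a time. The windows -14 to 0, -30 to -17 and -30 to 0 were added after seeing the data. The log2 ratio of the 8-codon sum, 0.017, was 0.0087 over positions -30 to -18, 0.0076 over -30 to -17, and -0.050 with median-of-ratios scaling. Codons with a log2 ratio of 0.1 or more numbered 2 over -20 to 0 and with the mean of per-position ratios, 3 over -17 to -3 and over -14 to 0, and 0 with median-of-ratios scaling, against 1 as reported. Codons at -0.1 or less numbered 1 with in-frame positions only and with median-of-ratios scaling, against 0. Amino acids with a C-ending share lower by 0.5 points numbered 2 of 4 over -30 to -18, against 4. The Asp ratio at position 1, 0.018, was -0.016 with median-of-ratios scaling and -0.038 at position 2. The Asp C-ending difference, -1.65 points, turned to 1.31 over -20 to 0, 2.12 over -17 to -3, 1.13 over -14 to 0 and 0.98 with the mean of per-position shares. The cause was not tested. Of the 412 alternatives for single codons and amino acids, 176 stayed within the counting interval, 232 moved beyond it, and these 4 turned a difference past its limit. For counts of positions with intervals apart, a fixed factor took the place of the counting interval. Among codons whose log2 ratio was under 0.1, the sign also turned in 3 choices each for AAC and GAC and in 1 each for CAU and UAC. No paired analysis was possible because each table is a sum over its 3 mice. For the same reason no mouse could be left out. The depth limits a single position to 8.24 (WT) and 5.59 (KO) ppm, the share that 3 counts make, and the lack of replicates limits every difference.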
